A study of Mus musculus with 19 samples.

Results

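Laptm5, Msln, Triml1, Cdyl2, Kdelr3 and Sox21 are 6 autosomal mouse genes whose transcript levels differed most between Tet3-/- and wild-type XX cells, or whose change from one culture state to the next differed most between them. They were picked from measured values: transcript rows of the deposited table were summed per gene, and the genes stood at or near the top of the autosomal differences between Tet3-/- and XX in mouse embryonic stem cells (mESC), in epiblast-like cells (EpiLC), or between their transitions from mESC to EpiLC. They are 6 of 54119 genes in the table, and all 6 were among the 14972 genes that passed a filter on low values, a level of at least 1 TPM (transcripts per 1000000, a measure corrected for transcript length) in at least 3 libraries. Because the Tet3-/- and XX values chose them, those values are given below as a description with no test. The XY libraries did not enter the choice, so the XY transition was tested, apart from those of Sox21 and Msln for reasons given below.

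The libraries came from 2 mESC lines and fall into 6 groups. XX cells were wild-type LF2, with 3 mESC and 3 EpiLC libraries. XY cells were wild-type E14, with 3 mESC and 3 EpiLC libraries. Tet3-/- cells were LF2 XX cells lacking Tet3, with 4 mESC libraries (mutants #1 to #4) and 3 EpiLC libraries (mutants #1, #3 and #4). All mESC were grown with LIF and with inhibitors of the GSK3 and MEK1/2 kinases, and EpiLC were derived from them over 5 days in FGF5 and Activin A with LIF withdrawn. Sex and cell line cannot be told apart in this design, since each wild-type sex is a single line. The labels say neither whether the mutant numbers are separate clones nor whether replicates are separate cultures, so a p-value here measures only the spread between these libraries. Per the series' design text, the comparison addresses a requirement for TET3 in this transition.

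TET3 is a dioxygenase that oxidises 5-methylcytosine in DNA, a step toward removing the methyl mark, which in mammals lies mostly on CG dinucleotides. EpiLC are a culture model of the formative stage, in which the naive pluripotency network is switched off and DNA methylation rises. The 6 genes have no common function. Sox21 and Cdyl2 encode nuclear proteins, a SOX transcription factor and a chromodomain protein. Triml1 encodes a tripartite-motif-like protein known from the preimplantation embryo. Laptm5, Kdelr3 and Msln encode proteins of the lysosomal membrane, of the path between Golgi and endoplasmic reticulum (ER), and of the cell surface.

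The genes lie on 5 autosomes of GRCm38. Laptm5 spans chr4:130913125-130936141 on the plus strand and Kdelr3 chr15:79516411-79527739 on the plus strand. On the minus strand lie Msln at chr17:25748613-25754378, Sox21 at chr14:118233232-118237030, Triml1 at chr8:43129807-43141486 and Cdyl2 at chr8:116574400-116732991. Triml1 and Cdyl2 thus share chromosome 8 but lie far apart on it.

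Promoter sequences from RefSeq (GRCm38.p6) were matched for 4 of the 6 genes. They are shown because TET3 acts on methylated CG sites, so that a reader can see how many such sites each promoter offers. The methylation of these sites was not measured. Each line runs 5′ to 3′ on the strand of the gene, and CG dinucleotides are in capitals. The motif searched was CG, which reads the same on both strands and cannot overlap itself. The stretches are chr4:130913066-130913124 for Laptm5, chr8:43141487-43141736 for Triml1, chr15:79516158-79516407 for Kdelr3 and chr14:118237031-118237280 for Sox21. For Laptm5 only the 59 bases before the annotated gene start are printed.
Laptm5: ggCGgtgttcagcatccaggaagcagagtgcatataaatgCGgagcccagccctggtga
Triml1: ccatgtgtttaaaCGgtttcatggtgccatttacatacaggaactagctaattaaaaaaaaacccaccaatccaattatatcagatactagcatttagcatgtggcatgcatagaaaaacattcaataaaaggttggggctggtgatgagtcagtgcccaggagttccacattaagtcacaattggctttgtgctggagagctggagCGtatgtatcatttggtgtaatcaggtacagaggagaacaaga
Kdelr3: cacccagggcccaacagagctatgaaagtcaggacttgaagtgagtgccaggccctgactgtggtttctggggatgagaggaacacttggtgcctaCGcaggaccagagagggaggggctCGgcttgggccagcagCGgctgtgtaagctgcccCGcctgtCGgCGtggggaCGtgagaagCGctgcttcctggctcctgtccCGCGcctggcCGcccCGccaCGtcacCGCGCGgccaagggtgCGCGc
Sox21: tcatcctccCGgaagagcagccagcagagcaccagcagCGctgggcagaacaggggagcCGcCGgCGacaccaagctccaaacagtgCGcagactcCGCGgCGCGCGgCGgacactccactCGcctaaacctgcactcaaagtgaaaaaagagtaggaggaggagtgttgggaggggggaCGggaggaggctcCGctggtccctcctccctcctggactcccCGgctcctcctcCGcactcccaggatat

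The promoters fell into 2 kinds by this count. Over 250 bases, Kdelr3 held 18 CG and Sox21 17, counts reached by 21.7% and 23.5% of the 32851 promoters in the RefSeq table. Triml1 held 2, and 81.2% of promoters held at least that many. Laptm5 held 5 in its 250-base RefSeq window, of which the first 59 bases printed hold 2, and 55.6% of promoters held as many. The median promoter held 6. Base composition followed the same order, with a GC content of 67.2% for Kdelr3, 65.2% for Sox21, 61.2% for Laptm5 and 40.4% for Triml1.

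Some libraries stood apart from the others of their group. Factors that bring libraries to a common median ratio (size factors) ran from 0.599 to 1.71, with 0.599 to 1.06 in XX mESC, 1.38 to 1.71 in XY EpiLC and 0.658 to 1.34 in Tet3-/- EpiLC. Values called scaled below were divided by these factors. A single RNA, Rn7s1, held from 23.5% to 43.7% of all TPM. Mutant #3 in EpiLC stood apart from the other 2 mutants: the median log2(TPM + 1) of 14 formative pluripotency genes was 4.15 there, against 2.19 and 2.41 in mutants #1 and #4. Tet3 itself, the check of the labels, was measured at 0.761 ± 0.269 TPM in XX mESC (SD, n = 3) and 0.661 ± 0.174 TPM in Tet3-/- mESC (SD, n = 4), and at 1.65 ± 0.386 and 1.04 ± 0.363 TPM in EpiLC (SD, n = 3 each). The libraries overlapped in both states and neither difference passed the test (limma adjusted p 0.885 and 0.525). On scaled values the EpiLC ranges did not overlap, with 1.05 to 1.31 in Tet3-/- and 1.4 to 1.91 in XX, a difference of -0.34 (SE 0.12, limma adjusted p 0.114). Transcript may remain after a deletion, so this level does not check the mutation. TPM does not keep sequencing depth, so no counting error can be given. All RNA samples had an RNA integrity number of at least 9.

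**Figure D1:**
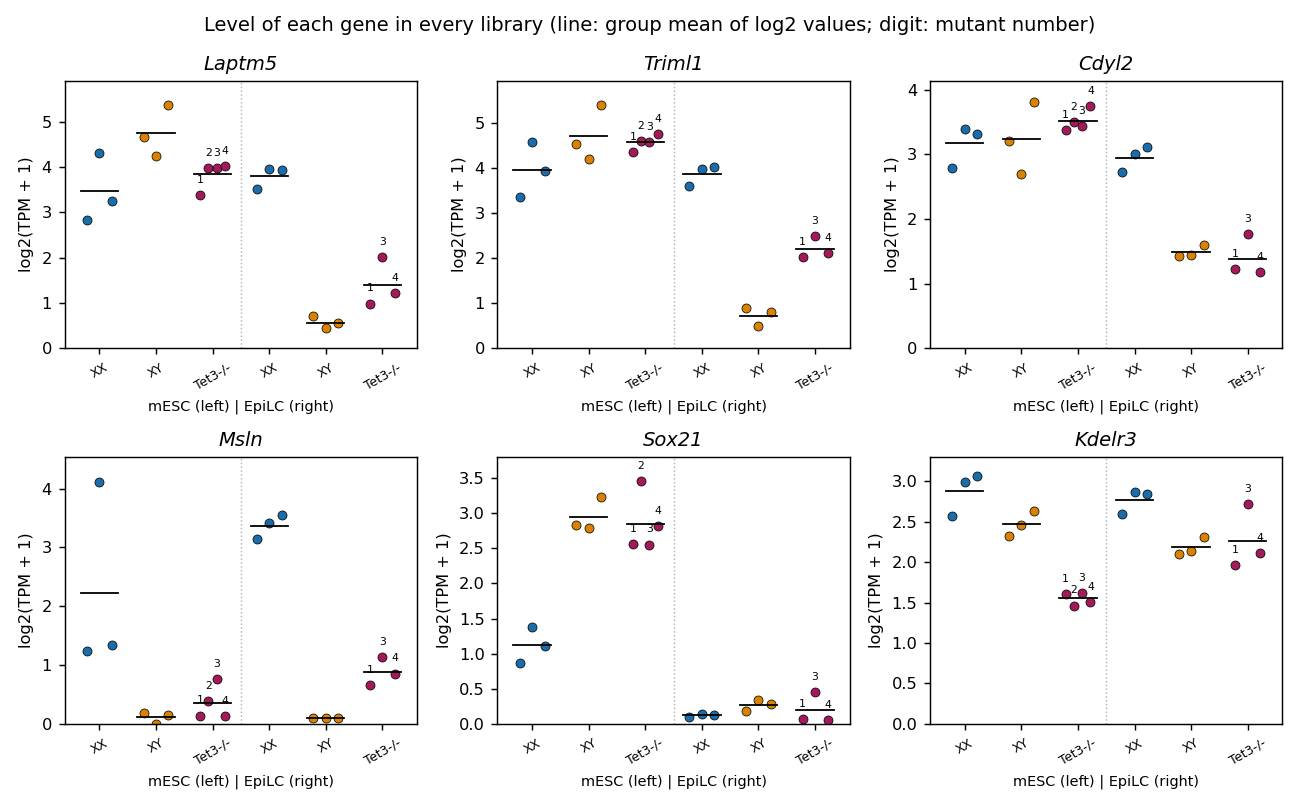
Level of each of the 6 genes in every library, as log2(TPM + 1) on the vertical axis, with XX in blue, XY in orange and Tet3-/- in purple, mESC left and EpiLC right of the dotted line. Points are libraries, lines are group means of the log2 values, and digits are mutant numbers. Laptm5, Triml1 and Cdyl2 are high in all 3 mESC groups and in XX EpiLC and low in the XY and Tet3-/- EpiLC.

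Sox21 encodes a SOX transcription factor of the B2 subgroup, known for counteracting the B1 factors such as SOX2. In mESC it was 5.40-fold higher in Tet3-/- than in XX by mean TPM, and stood at about the XY level. In XX mESC its level was 0.821, 1.60 and 1.16 TPM in libraries 1, 2 and 3. In the Tet3-/- mESC it was 4.88, 9.95, 4.87 and 6.06 TPM in mutants #1 to #4. In XY mESC it was 6.12, 5.94 and 8.38 TPM. Every mutant and every XY library was above every XX library, while the mutant and XY libraries overlapped. The group means were 1.19 ± 0.389 TPM in XX (SD, n = 3), 6.44 ± 2.41 in Tet3-/- (SD, n = 4) and 6.81 ± 1.36 in XY (SD, n = 3). Low values change less on the log2(TPM + 1) scale than in TPM, and on it the mutants exceeded XX by 1.73 (SE 0.20), and 1.59 (SE 0.18) on scaled values. In a bulk library, fewer cells carrying a transcript and less of it per cell cannot be told apart.

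In EpiLC Sox21 was close to absent in every group. Its level was 0.0695, 0.107 and 0.0942 TPM in XX, 0.139, 0.261 and 0.217 TPM in XY, and 0.0468, 0.371 and 0.0377 TPM in mutants #1, #3 and #4. The XX and mutant libraries overlapped, with mutant #3 the highest of all EpiLC libraries. Tet3-/- minus XX in EpiLC was 0.07 (SE 0.22). EpiLC minus mESC was -2.65 (SE 0.20) in Tet3-/- and -0.99 (SE 0.22) in XX. In XY Sox21 fell by 2.68 (SE 0.22), lower in each of the 3 EpiLC libraries than in any mESC library. The gene passed the filter on low values through its mESC levels alone, which favours such a fall. The XY fall of Sox21 is therefore given as a description with no test.

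Cdyl2, chromodomain Y-like 2, binds methylated histone tails through its chromodomain and is a relative of the corepressor CDYL. Its level in EpiLC was 4.07-fold lower in Tet3-/- than in XX by mean TPM. In XX EpiLC it was 5.63, 7.02 and 7.65 TPM, and in mutants #1, #3 and #4 it was 1.33, 2.39 and 1.26 TPM. In XY EpiLC it was 1.68, 1.72 and 2.02 TPM. All XX libraries lay above all mutant and XY libraries, and the mutant values spanned the XY values. The group means were 6.77 ± 1.03, 1.66 ± 0.635 and 1.81 ± 0.186 TPM for XX, Tet3-/- and XY (SD, n = 3 each). On scaled values the mutants, at 1.75 to 1.92, lay above the XY libraries, at 1.02 to 1.22, so the order of these 2 groups depends on the scale.

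The mESC levels of Cdyl2 gave no such separation. They were 5.95, 9.49 and 9.01 TPM in XX, 8.21, 5.49 and 13.0 TPM in XY, and 9.35, 10.3, 9.90 and 12.5 TPM in mutants #1 to #4. The 3 groups overlapped. In XX the EpiLC and mESC libraries overlapped, with a transition of -0.22 (SE 0.25). On scaled values the XX EpiLC lay below the XX mESC, with -0.42 (SE 0.10). In Tet3-/- the transition was -2.13 (SE 0.24). In XY it fell by 1.75 (SE 0.25, limma adjusted p 1.58e-05), lower in all 3 EpiLC libraries than in any mESC library. A single transcript, Cdyl2-201, stands for the gene in the table.

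Triml1 encodes a protein of the tripartite-motif-like group. Its level in EpiLC was 3.74-fold lower in Tet3-/- than in XX by mean TPM and lower still in XY. In XX EpiLC it was 11.0, 14.7 and 15.3 TPM, in mutants #1, #3 and #4 it was 3.08, 4.59 and 3.29 TPM, and in XY EpiLC it was 0.843, 0.395 and 0.738 TPM. The 3 groups did not overlap, in the order XX, Tet3-/-, XY, on TPM and on scaled values alike. Group means were 13.7 ± 2.32, 3.65 ± 0.816 and 0.659 ± 0.234 TPM (SD, n = 3 each), and the mutants differed from XX by -1.66 (SE 0.30).

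In mESC Triml1 was at 9.17, 22.7 and 14.2 TPM in XX, 22.2, 17.4 and 41.1 TPM in XY, and 19.4, 23.3, 22.8 and 25.8 TPM in mutants #1 to #4. The TPM of the 3 groups overlapped, with XX library 1 the lowest and XY library 3 the highest. On scaled values the mutants, at 21.5 to 24.7, lay just above the XX libraries, at 15.3 to 21.5, and overlapped the XY libraries, at 23.4 to 29.8. The XX transition was -0.08 (SE 0.30), a value whose sign turned to 0.23 without XX mESC library 2, and the Tet3-/- transition -2.36 (SE 0.28). Scaled, the XX EpiLC libraries, at 12.7 to 15.1, lay below the XX mESC libraries, at 15.3 to 21.5, with -0.28 (SE 0.15). In XY the gene fell by 3.99 (SE 0.30, limma adjusted p 5.32e-09), lower in 3 of 3 libraries. All 3 annotated transcripts took part. The coding Triml1-201, which held 67.5% of the gene's TPM, had a mean of 8.24 TPM in XX EpiLC, 2.48 in Tet3-/- and 0.367 in XY. The retained-intron transcript (20.9%) had 3.36, 0.716 and 0.208 TPM, and the third, annotated as a processed transcript (11.6%), had 2.06, 0.454 and 0.0837 TPM.

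Laptm5 encodes a lysosomal membrane protein known from blood cells, where it promotes degradation of antigen receptors. In these pluripotent cells its level in EpiLC was 7.37-fold lower in Tet3-/- than in XX by mean TPM. In XX EpiLC it was 10.5, 14.6 and 14.4 TPM, in mutants #1, #3 and #4 it was 0.978, 3.05 and 1.32 TPM, and in XY EpiLC it was 0.629, 0.356 and 0.469 TPM. As for Triml1, the 3 groups did not overlap, again in the order XX, Tet3-/-, XY. Group means were 13.2 ± 2.30, 1.79 ± 1.11 and 0.485 ± 0.137 TPM (SD, n = 3 each), and mutant #3 held the highest mutant value of both genes. The mutants differed from XX by -2.40 (SE 0.35).

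Laptm5 in mESC was at 6.13, 19 and 8.55 TPM in XX, 24.3, 18.0 and 40.5 TPM in XY, and 9.45, 14.8, 14.8 and 15.3 TPM in mutants #1 to #4. The mutants lay within the XX range, and XY library 2 lay below the highest XX library. The transition was 0.34 (SE 0.35) in XX, where the libraries of both states overlapped, and -2.44 (SE 0.33) in Tet3-/-, where they did not. In XY it fell by 4.19 (SE 0.35, limma adjusted p 2.06e-08), from a mean of 27.6 ± 11.6 to 0.485 ± 0.137 TPM (SD, n = 3 each), lower in 3 of 3 libraries.

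Nearly all Laptm5 TPM came from 1 of 10 annotated transcripts. Laptm5-207, which starts at the first base of the gene, held 91.6% of it, and had a mean of 11.7 TPM in XX EpiLC, 1.58 in Tet3-/- and 0.317 in XY. Laptm5-201, a coding transcript that starts downstream at position 130915949, was listed at 0 in 18 of 19 libraries, and at 0.154 TPM in XY EpiLC library 3. The summed level of blood cell markers overlapped between XX and Tet3-/- EpiLC. Of 8 such markers 2, Coro1a and Lcp1, passed the filter, and neither was called between Tet3-/- and XX in either state. In EpiLC Coro1a was at 1.67 to 2.44 TPM in XX and 1.24 to 1.48 in Tet3-/-, the direction of Laptm5, and Lcp1 was at 0.180 to 0.292 and 0.362 to 0.946 TPM, the opposite direction, each without overlap. The summed level was 2.40 to 3.22 TPM in XX EpiLC, 2.23 to 3.10 in Tet3-/- and 3.87 to 5.17 in XY. Tyrobp was listed at 0 in every XX and Tet3-/- EpiLC library, and Ptprc (CD45) reached at most 0.0311 TPM in XX EpiLC and 0.178 in Tet3-/-. The part of such cells in the Laptm5 values was not tested.

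**Figure D2:**
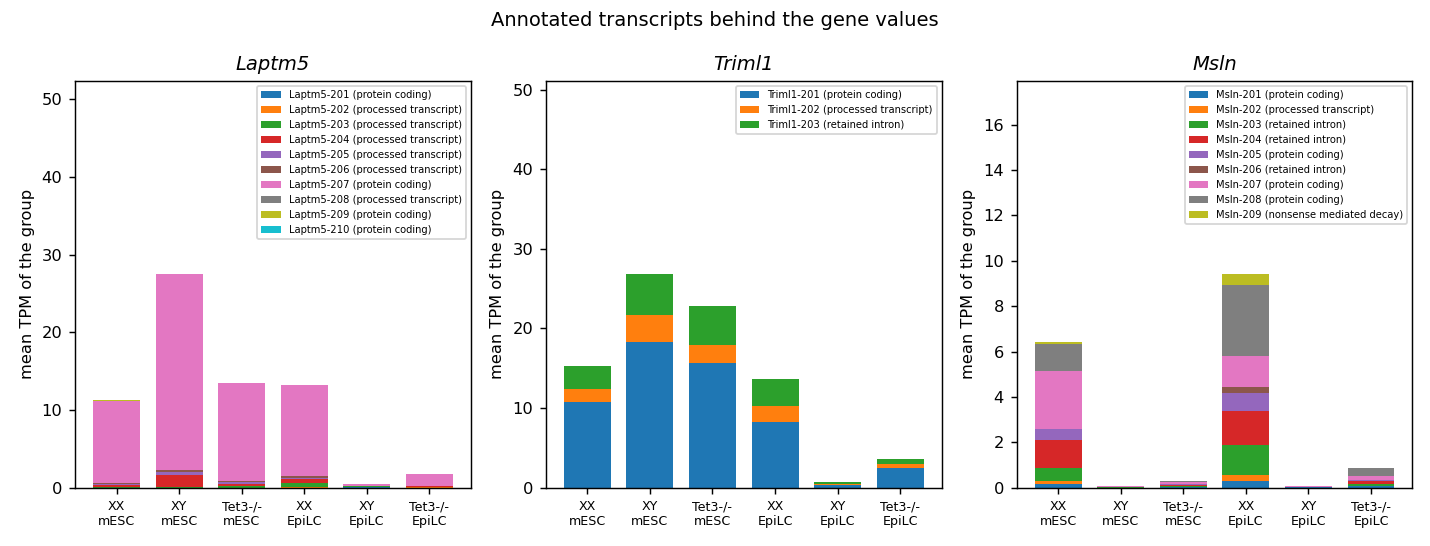
Mean TPM of each annotated transcript of Laptm5, Triml1 and Msln in the 6 groups, stacked to the gene's value, with the biotype of each in the key. Laptm5-207 makes up most of each Laptm5 bar, the 3 Triml1 transcripts are all low in XY and Tet3-/- EpiLC, and Msln is spread over several transcripts.

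Kdelr3 is 1 of 3 KDEL receptors, which carry escaped ER proteins back from the Golgi. In mESC its mutant values lay below those of both wild-type lines. In XX mESC it was at 4.93, 6.97 and 7.39 TPM, in XY at 4.01, 4.51 and 5.22 TPM, and in mutants #1 to #4 at 2.05, 1.76, 2.08 and 1.85 TPM. All 4 mutants lay below all 6 wild-type libraries, while XX and XY overlapped. Means were 6.43 ± 1.32 TPM in XX (SD, n = 3), 4.58 ± 0.606 in XY (SD, n = 3) and 1.94 ± 0.155 in Tet3-/- (SD, n = 4). The mutant mean was 3.32-fold below XX, and Tet3-/- minus XX was -1.32 (SE 0.19), or -1.57 (SE 0.13) on scaled values.

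In EpiLC the gap in Kdelr3 was smaller. Levels were 5.04, 6.29 and 6.18 TPM in XX, 3.31, 3.40 and 3.97 TPM in XY, and 2.91, 5.58 and 3.32 TPM in mutants #1, #3 and #4. Mutant #3 lay within the XX range and the other two lay below it, so on TPM the groups overlapped. On scaled values they did not, with 3.84 to 5.04 in Tet3-/-, 5.82 to 6.5 in XX and 2.02 to 2.40 in XY. Tet3-/- minus XX was -0.50 (SE 0.20), and -0.73 (SE 0.18) without mutant #3. The transition was 0.71 (SE 0.19) in Tet3-/-, where all EpiLC libraries lay above all mESC libraries, and -0.11 (SE 0.20) in XX. In XY the difference was -0.29 (SE 0.20, limma adjusted p 0.236). All 3 XY EpiLC libraries lay below all 3 XY mESC libraries, and on scaled values the fall passed the test, at -0.79 (SE 0.14, limma adjusted p 0.000174).

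The other 2 KDEL receptors were not called lower in Tet3-/- mESC by the same test. Kdelr1 had 21.8 ± 6.90 TPM in XX mESC (SD, n = 3) and 20.3 ± 1.60 in Tet3-/- (SD, n = 4), a difference of -0.05 (SE 0.22, limma adjusted p 0.948). On scaled values, however, Kdelr1 was lower in Tet3-/- mESC without overlap, at 18.6 to 21.8 against 24.4 to 27.5 in XX, though not called. Kdelr2 had 24.8 ± 10.6 and 42.5 ± 7.13 TPM (SD, n = 3 and n = 4), a difference of 0.82 (SE 0.31, limma adjusted p 0.37) in the opposite direction to Kdelr3. On scaled values Kdelr2 passed the test as higher in Tet3-/-, by 0.55 (SE 0.14, limma adjusted p 0.0425) in mESC and by 0.82 (SE 0.15, limma adjusted p 0.0041) in EpiLC. Of 12 ER-resident proteins with a KDEL-like tail, the cargo of these receptors, 0 were called by limma between Tet3-/- and XX in mESC, in EpiLC or between the transitions, also on scaled values. Of all tested genes 0.601%, 1.08% and 0.174% were called in these contrasts, and 3.19%, 5.46% and 0.661% on scaled values. No call among 12 genes therefore says little. Their median differences were 0.46 in mESC and 0.09 in EpiLC, beside 0.19 and -0.07 over all genes tested. Hspa5 (BiP), the main ER chaperone, differed by 0.70 (SE 0.40, limma adjusted p 0.662) in mESC.

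Msln encodes mesothelin, a lipid-anchored surface glycoprotein of mesothelial cells that binds the mucin MUC16. It was low in Tet3-/- in both states and close to absent in XY. In EpiLC it was at 7.82, 9.66 and 10.8 TPM in XX, 0.573, 1.2 and 0.809 TPM in mutants #1, #3 and #4, and 0.0718, 0.0739 and 0.0688 TPM in XY. The 3 groups did not overlap, and the Tet3-/- mean of 0.860 ± 0.315 TPM was 11.0-fold below the XX mean of 9.44 ± 1.52 (SD, n = 3 each). The difference from XX was -2.49 (SE 0.48).

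In mESC Msln depended on 1 library. Levels were 1.35, 16.4 and 1.53 TPM in XX libraries 1, 2 and 3, 0.103, 0.303, 0.696 and 0.0923 TPM in mutants #1 to #4, and 0.134, 0 and 0.106 TPM in XY. All XX libraries lay above all mutants and all XY libraries. XX library 2, however, was far above the other XX libraries, and the mean of 6.42 ± 8.64 TPM (SD, n = 3) was 1.44 without it. Tet3-/- minus XX was -1.88 (SE 0.45), and -0.93 (SE 0.19) without that library. The difference was -2.05 (SE 0.41) on scaled values and -3.34 (SE 0.66) with a pseudocount of 0.1. The choice of the genes used this contrast, so these sizes are a description. The XY transition of Msln was -0.01 (SE 0.48), with every XY library at or below 0.134 TPM. From so low a level no fall could pass the test, so this value is a description with no test. No single transcript led: Msln-208 held 27.3% of the gene's TPM, Msln-207 25.1% and the retained-intron Msln-204 17.1%.

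Mesothelial markers were at a higher summed level in Tet3-/- than in XX EpiLC, but single markers went both ways. Of 6 such markers 1, Lrrn4, passed the filter, and it was not called between Tet3-/- and XX on TPM. On scaled values Lrrn4 was called higher in Tet3-/- EpiLC, by 0.57 (SE 0.12, limma adjusted p 0.00863), and between the transitions, by 0.76 (SE 0.16, limma adjusted p 0.0388). Their summed level was 0.377 to 0.846 TPM in XX and 0.262 to 0.506 in Tet3-/- mESC. In EpiLC it was 1.75 to 2.07 in XX, 2.39 to 4.52 in Tet3-/- and 9.25 to 11.0 in XY, the reverse of the order of Msln. Lrrn4 made up 8.65 to 10.4 TPM of the sum in XY. Upk3b, at 0.0959 to 0.128 TPM in XX EpiLC and 0.00801 to 0.0830 in Tet3-/-, had the direction of Msln without overlap. Wt1 had 0.530 ± 0.0933 TPM in XX EpiLC and 1.26 ± 1.01 in Tet3-/- (SD, n = 3 each). The ligand gene Muc16 was at most 0.0301 TPM in any EpiLC library, and the mesothelin-like gene Mslnl at most 0.446 TPM in any library.

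Counting the 6 genes by contrast restates how they were chosen and is read no further. In mESC 2 of the 6, Kdelr3 (lower) and Sox21 (higher), were called between Tet3-/- and XX at a limma adjusted p under 0.05, where 0.601% of all tested genes were called, 0.107% lower and 0.494% higher. On scaled values Msln made it 3 of 6, where 3.19% of genes were called. In EpiLC 4 of 6 were called, Laptm5, Msln, Triml1 and Cdyl2, all lower, where 1.08% of genes were called and 0.955% were called lower. Between the transitions 4 of 6 were called, Laptm5, Triml1, Cdyl2 and Sox21, all lower in Tet3-/-, where 0.174% of genes were called. On scaled values Kdelr3, higher by 1.15 (SE 0.19), made it 5 of 6, where 0.661% were called. The differences of transitions were -2.78 (SE 0.49) for Laptm5, -2.28 (SE 0.41) for Triml1, -1.91 (SE 0.35) for Cdyl2 and -1.66 (SE 0.30) for Sox21, with 0.82 (SE 0.27) for Kdelr3 and -0.62 (SE 0.65) for Msln. The median of this difference over all genes was -0.28.

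The edge of the choice lay within small steps. In mESC Kdelr3 (-1.32) stood between the non-coding Gm35248 (-1.36) and 2210409E12Rik (-1.27), followed by Aqp3 (-1.24), and Sox21 (1.73) between Gm38226 (1.96) and Mirg (1.60). In EpiLC Msln and Laptm5 led the lower genes and Gstp2 (-2.01) came next, while Triml1 and Cdyl2 were 13th and 16th of 71. For the transitions Laptm5, Triml1 and Cdyl2 led, Lrrc31 (-1.83) came next, and Sox21 was 8th of 14. These rankings hold called autosomal genes with a mean of at least 5 TPM in the highest of the groups compared. Those in mESC and in EpiLC hold only genes whose Tet3-/- and XX libraries did not overlap.

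The XY transition gave the test that the choice did not use. Of the 6 genes, 4 fell (Laptm5, Triml1, Sox21 and Cdyl2) and 0 rose, in a contrast where 50.5% of all genes were called, 9.36% lower and 41.1% higher. Sox21 is among the 4, but it passed the filter only through mESC, which favours a fall, so its fall is a description. Msln, at or below 0.134 TPM in every XY library, was too low for a fall to show and is a description as well. On scaled values Kdelr3 fell too, so 5 of 6 fell, where 51.4% of genes were called and 25% were called lower. In 5 of the 6 genes, all but Msln, the XY EpiLC libraries lay wholly below the XY mESC libraries. The share of all tested genes that separated in this way was not counted, so this count is read no further. The calls of Laptm5, Triml1 and Cdyl2 in XY held in each of 16 alternative analyses.

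**Figure D3:**
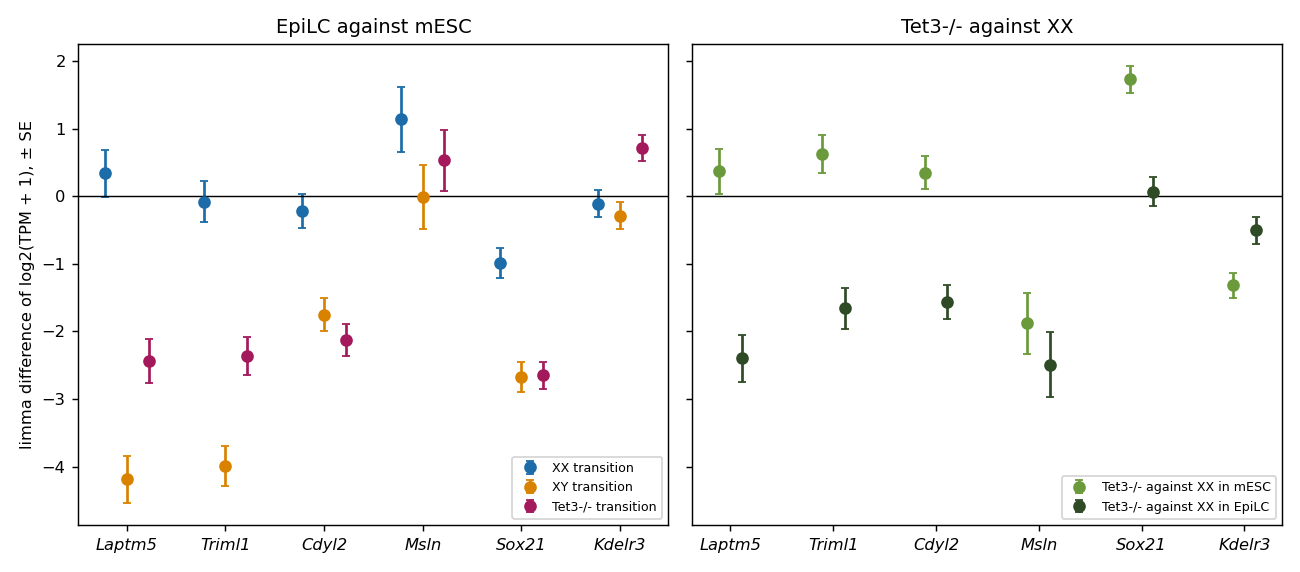
Left, the EpiLC minus mESC difference of log2(TPM + 1) for each gene in XX, XY and Tet3-/-, and right, the Tet3-/- minus XX difference in mESC and EpiLC, as limma estimates with bars of 1 SE. For Laptm5, Triml1 and Cdyl2 the XX values lie near 0 and the XY and Tet3-/- values well below it, and for Kdelr3 the Tet3-/- value alone lies clearly above 0.

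The 3 transitions were then set side by side. The XX estimates share their libraries with the choice of the genes and are given without a test. For Laptm5 the XX, Tet3-/- and XY transitions were 0.34, -2.44 and -4.19. For Triml1 they were -0.08, -2.36 and -3.99, with the mutants between XX and XY. For Cdyl2 they were -0.22, -2.13 and -1.75. For Sox21 they were -0.99, -2.65 and -2.68. For Kdelr3 they were -0.11, 0.71 and -0.29, and for Msln 1.14, 0.53 and -0.01. These sizes depend on the pseudocount where levels are low. With 0.1 in place of 1 the Msln transitions were 1.48 in XX and 1.47 in Tet3-/-, and by mean TPM the EpiLC level was 1.47-fold the mESC level in XX and 2.88-fold in Tet3-/-. Those of Sox21 were then -2.72 in XX, -4.88 in Tet3-/- and -4.50 in XY. Tet3-/- and XY were each set against the same XX libraries, so their distances from XX are not independent of each other. XX minus XY in EpiLC was 3.24 for Laptm5, 3.27 for Msln, 3.14 for Triml1, 1.46 for Cdyl2, 0.58 for Kdelr3 and -0.14 for Sox21. The median gene was lower in XX than in XY EpiLC by this measure, at -0.59.

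Genes whose levels most resembled each member over the 19 libraries were listed by Pearson's r of log2(TPM + 1). The r describes these libraries, which share groups, scale and depth, and carries no test. Members were chosen for their differences in these same libraries, so likeness between members is partly built in. Triml1, chosen in the same way, was the closest gene to Laptm5 of all tested genes (r = 0.971), followed by Triml2 (0.931) and Ass1 (0.931). For Triml1 the closest were Triml2 (0.981), Laptm5 (0.971) and Pramef12 (0.963). For Cdyl2 they were Mybl2 (0.952), Tex14 (0.942) and Psma8 (0.942), and for Sox21 Cd2 (0.980), Irak4 (0.965) and 8030453O22Rik (0.959). Msln was closest to Krt42 (0.951), Fbxo6 (0.900) and Lmna (0.855). Kdelr3 had no close partner, with Mpzl2 (0.686), F3 (0.668) and Msln (0.630) leading.

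The 2 nearest tested genes on each side of each member, 24 in all, were examined next. Between Tet3-/- and XX 0 of 24 were called by limma in mESC, where 0.601% of genes were called, and 1 on scaled values, where 3.19% were. In EpiLC 3 of 24 were called, Matn1, Triml2 and Abcc4, all lower, where 1.08% of genes were called, and 8 on scaled values, where 5.46% were. Between the transitions 0 of 24 were called on TPM, where 0.174% of genes were called, and 2, Triml2 and Abcc4, on scaled values, where 0.661% were.

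Triml2, a paralogue of Triml1, starts 39055 bases from it on the opposite strand, and Zfp42 (Rex1), a naive pluripotency factor, lies 153577 bases away. Triml2 was at 24.0 ± 2.94 TPM in XX, 9.85 ± 3.95 in Tet3-/- and 1.11 ± 0.174 in XY EpiLC (SD, n = 3 each), the same order as Triml1. It was lower in Tet3-/- EpiLC by 1.26 on the log2 scale (SE 0.29, limma adjusted p 0.0382), lower in 3 of 3 libraries. Zfp42 had 17.3 ± 0.906, 7.26 ± 3.74 and 6.92 ± 0.482 TPM (SD, n = 3 each). Its difference of -1.24 (SE 0.35, limma adjusted p 0.115) did not pass on TPM and did on scaled values (-1.15, SE 0.18, limma adjusted p 0.00142). In XY both fell into EpiLC, Triml2 by 4.47 (SE 0.29, limma adjusted p 6.43e-10) and Zfp42 by 4.57 (SE 0.35, limma adjusted p 6.01e-09). On the other side of Triml1 the nearest tested genes, Frg1 and Asah1, lie 1712733 and 1755034 bases away and were not called between Tet3-/- and XX.

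Matn1, which encodes the cartilage matrix protein matrilin-1, lies 8244 bases beyond the end of Laptm5 on the same strand. It had 3.98 ± 0.486 TPM in XX EpiLC, 0.810 ± 0.0489 in Tet3-/- and 0.633 ± 0.146 in XY (SD, n = 3 each). The difference between Tet3-/- and XX was -1.46 (SE 0.28, limma adjusted p 0.014), lower in 3 of 3 libraries. Unlike Laptm5, Matn1 was higher in XX EpiLC than in XX mESC, by 1.09 (SE 0.28, limma adjusted p 0.0059). Abcc4, which encodes a drug and nucleotide exporter and lies 245662 bases from Sox21, was lower in Tet3-/- EpiLC by 1.14 on the log2 scale (SE 0.26, limma adjusted p 0.0368), with 1.71 ± 0.152 against 4.99 ± 0.772 TPM (SD, n = 3 each). Sox21 itself differed by 0.07 there. Ddx17, on the opposite strand, overlaps the end of Kdelr3 by a few bases. It had 52.1 ± 6.84 TPM in Tet3-/- and 47.4 ± 11.5 in XX mESC (SD, n = 4 and n = 3), a difference of 0.15 (SE 0.29, limma adjusted p 0.868). The neighbours of Cdyl2 and Msln were not called between Tet3-/- and XX on TPM. All 4 Msln neighbours were lower in Tet3-/- than in XX EpiLC without overlap. So were Matn1, Asah1, Triml2, Zfp42, Wwox, Dmc1 and Abcc4 beside other members. The share of all tested genes that separated in this way was not counted. On scaled values Chtf18 (-0.99, SE 0.28, limma adjusted p 0.0494), Rpusd1 (-0.69, SE 0.19, limma adjusted p 0.0412) and Narfl (-0.60, SE 0.14, limma adjusted p 0.0169) were called, where 5.46% of all genes were.

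**Figure D4:**
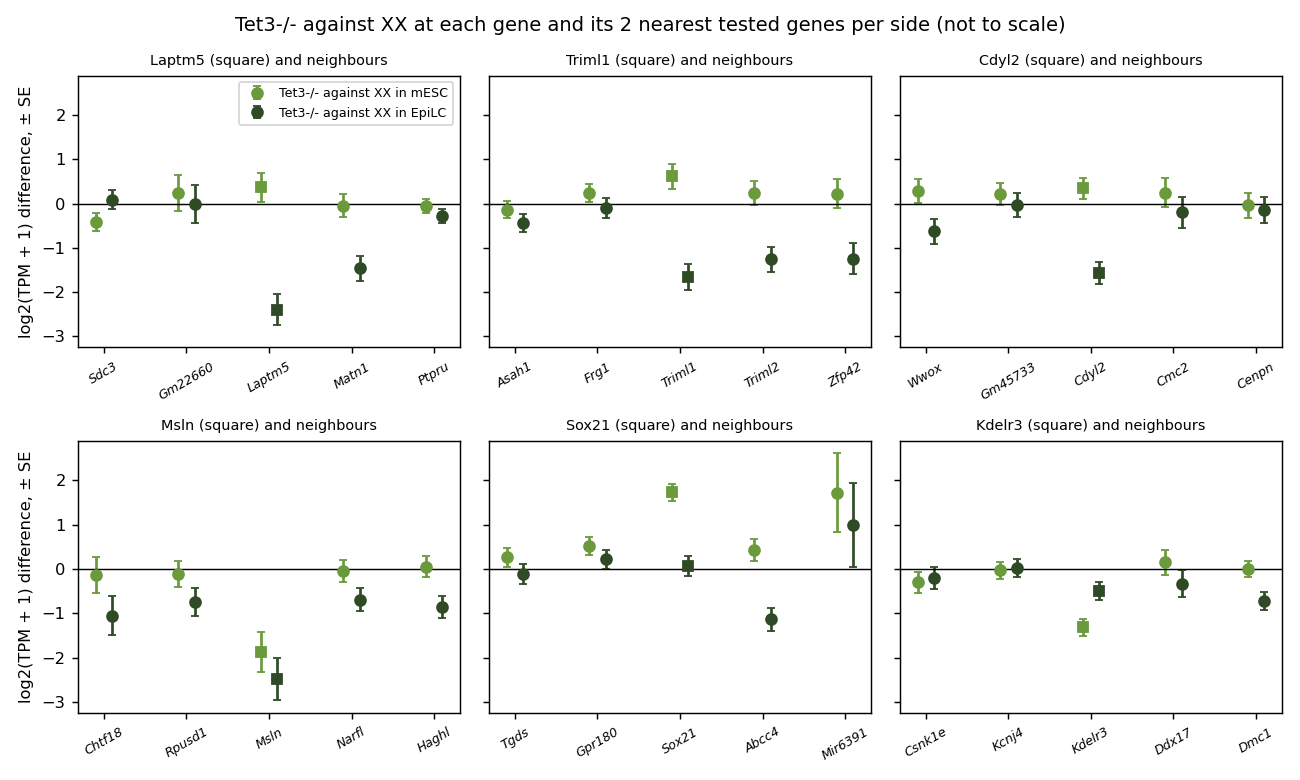
Tet3-/- minus XX difference of log2(TPM + 1), with bars of 1 SE, for each of the 6 genes (squares) and its 2 nearest tested genes per side (circles) in chromosome order, in mESC (light) and EpiLC (dark). Triml2 and Zfp42 beside Triml1 and Matn1 beside Laptm5 lie below 0 in EpiLC, and the neighbours of Cdyl2 and Kdelr3 lie nearer 0 than the gene itself does in the state in which it was called.

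Family relatives of the 6 genes were listed as well, 12 genes of which 8 passed the filter. In mESC 0 of the 8 were called between Tet3-/- and XX, beside 0.601% of all genes, and 1, Kdelr2, on scaled values, beside 3.19%. In EpiLC 3 of the 8 were called, Sox3 higher and Sox2 and Triml2 lower, beside 1.08% of all genes. Sox2, the core pluripotency factor of the B1 subgroup, was at 7.02 ± 2.54 TPM in Tet3-/- and 15.8 ± 1.37 in XX EpiLC (SD, n = 3 each), lower by 1.11 on the log2 scale (SE 0.24, limma adjusted p 0.0285) and in 3 of 3 libraries. Sox3, an X-linked B1 factor, was at 2.86 ± 0.360 and 1.19 ± 0.166 TPM (SD, n = 3 each), higher by 0.82 (SE 0.14, limma adjusted p 0.00452) and in 3 of 3 libraries. In mESC, where Sox21 was high in the mutants, Sox2 was at 103 ± 5.03 TPM in Tet3-/- (SD, n = 4) and 73.0 ± 18.9 in XX (SD, n = 3), a difference of 0.52 (SE 0.23, limma adjusted p 0.485). Sox1 was at most 0.460 TPM in XX and 0.190 in Tet3-/- mESC.

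Cdyl, the close relative of Cdyl2, went the other way in XY. It was higher in XY EpiLC than in XY mESC by 1.32 (SE 0.31, limma adjusted p 0.00158), with 26.3 ± 4.59 against 10.5 ± 5.08 TPM (SD, n = 3 each), and higher in 3 of 3 libraries. Between Tet3-/- and XX in EpiLC it differed by -0.02 (SE 0.31, limma adjusted p 1). Laptm4a and Laptm4b, relatives of Laptm5, were higher in XY EpiLC by 1.02 and 1.1 (SE 0.20 and 0.29, limma adjusted p 0.000307 and 0.00385), and on scaled values neither passed (0.35 and 0.43, limma adjusted p 0.153 and 0.336). In Tet3-/- against XX EpiLC they differed by 0.21 and -0.20 (SE 0.20 and 0.29, limma adjusted p 0.947 and 1).

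Some naive pluripotency genes, like Laptm5, Triml1 and Cdyl2, were lower in Tet3-/- EpiLC. Of 14 listed genes 3 were called lower in Tet3-/- than in XX EpiLC, Esrrb, Fgf4 and Tcl1, where 0.955% of all genes were called lower. On scaled values 10 were, where 5.46% of genes were called in either direction. The median difference was -0.96, beside -0.07 over all genes. Esrrb, a naive orphan nuclear receptor, had 3.71 ± 2.91 TPM in Tet3-/- and 12.6 ± 1.26 in XX EpiLC (SD, n = 3 each), lower by 1.70 (SE 0.34, limma adjusted p 0.0168). The median log2(TPM + 1) of the list was 2.20 to 2.37 in the XX EpiLC libraries, 0.98, 1.77 and 0.79 in mutants #1, #3 and #4, and 0.54 to 0.63 in XY. The order of this median over groups was that of Laptm5 and Triml1. By mean TPM in EpiLC all listed genes but Nanog, Fgf4, Klf2 and Klf4 had that order. Nanog was highest in XY, at 78.1 TPM against 39.6 in XX and 23.6 in Tet3-/-. The part of culture stage in the values of Laptm5 and Triml1 was not tested. In XX the list itself fell into EpiLC, with a median of -2.67. In it 13 of 14 genes were called lower, where 31.3% of all genes were called in either direction. The XX transitions of Laptm5, Triml1 and Cdyl2 were 0.34, -0.08 and -0.22 on TPM and 0.15, -0.28 and -0.42 on scaled values. Scaled, the XX EpiLC libraries lay below the XX mESC libraries for Triml1 and Cdyl2 and overlapped them for Laptm5. In mESC 0 of the 14 naive genes were called by limma between Tet3-/- and XX, beside 0.601% of all genes. On scaled values 1 was called lower, beside 3.19% of all genes called in either direction. Counts this near those shares say little.

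Markers of other cell types gave no call between Tet3-/- and XX on TPM, over 7 lists. Few of them passed the filter and were tested. These were 2 of 8 for blood, 1 of 6 for mesothelium and 3 of 7 for primitive endoderm. For trophoblast they were 3 of 5, for neural 2 of 7, and for fibroblast and two-cell-like markers 1 of 7 each. With 0.601% of all genes called in mESC and 1.08% in EpiLC, no call among so few says little. On scaled values Lrrn4 was called higher and the fibroblast marker Thy1 lower in Tet3-/- EpiLC (-0.99, SE 0.25, limma adjusted p 0.0286). Thy1 was at 0.748 to 0.864 TPM there and at 2.05 to 3.34 in XX. Primitive endoderm markers summed to 3.40 to 4.56 TPM in XX EpiLC and 2.95 to 16.0 in Tet3-/-. Neural markers, a group in which Sox21 is known to act, summed to 0.682 to 2.48 TPM in XX, 1.97 to 4.55 in Tet3-/- and 1.01 to 11.6 in XY mESC, ranges that overlapped where those of Sox21 in XX and Tet3-/- did not. Among them Neurod1 was at 0.238 to 0.637 TPM in Tet3-/- and 0.0499 to 0.202 in XX mESC, without overlap and in the direction of Sox21, a difference that did not pass (0.29, SE 0.15, limma adjusted p 0.611). Tubb3 had 2.32 ± 1.35 TPM in Tet3-/- (SD, n = 4) and 0.753 ± 0.780 in XX mESC (SD, n = 3) and overlapped, and Pax6 reached 0.305 and 0.229 TPM. The part of neural cells in the Sox21 values was not tested.

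The EpiLC differences of Laptm5, Triml1, Cdyl2 and Msln were no smaller without mutant #3, at -2.71, -1.80, -1.75 and -2.62. The calls of Msln and Triml1 were lost without XX EpiLC library 2 (-2.47 and -1.60) or library 3 (-2.40 and -1.57). Between the transitions, with single libraries left out, the difference ran from -3.20 to -2.46 for Laptm5, -2.59 to -1.98 for Triml1, -2.10 to -1.72 for Cdyl2 and -1.79 to -1.46 for Sox21, and each of the 4 lost its call without XX mESC library 1, XX EpiLC library 2 or 3, or EpiLC mutant #1 or #4. Sox21 also lost it without XX EpiLC library 1, Triml1 without XX mESC library 3 or mESC mutant #4, and Cdyl2 without mESC mutant #4. Without XX mESC library 2 the Msln difference between transitions was -1.56 and was called. The choice of the genes used these contrasts, so a call kept, lost or gained in them is a description.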

How the data were processed

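RNA was measured in 19 libraries of stranded total RNA depleted of ribosomal RNA, made from 200 ng of RNA with an integrity number of at least 9, per the labels' protocols. The deposited table holds TPM for 140948 transcripts, and each library sums to 1000000. The submitters' processing notes name FastQC 0.11.7, Trimmomatic 0.35, Salmon 1.1.0 and GRCm38, and the annotation release is not given in the sources used here. TPM keeps no depth, so only the spread between libraries gives the precision.

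Transcripts were summed per gene with GENCODE M21. With versions 139357 matched, another 495 matched once versions were dropped, and 1096, holding 0.0454% to 0.215% of TPM, were left out. Genes with at least 1 TPM in at least 3 libraries (14972) were fitted with limma 3.58.1 in R 4.3.3 on log2(TPM + 1) over all 19 libraries and 6 groups (eBayes with a trend). Benjamini-Hochberg adjustment was done per contrast, and an adjusted p under 0.05 is a call. Genes named are the 6 members, genes of 11 lists, the 3 genes of highest r with each member, the 2 nearest tested genes per side, the next genes in each ranking, and Tet3. The members and lists were chosen with earlier results of these data known.

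Alternatives were a pseudocount of 0.1, no filter, median-of-ratios scaling, at least 5 TPM in at least 3 libraries, rescaling over nuclear protein-coding genes, quantile normalization, protein-coding transcripts only, fits of only the groups compared, a replicate block, a log2 change of at least 1 as well, and each library left out. Simulated tables of 14972 genes, 200 of them changed, were used as a check: a change of 2 on the log2 scale was found for 97% in Tet3-/- against XX mESC, 96% in EpiLC, 75.5% between the transitions and 97.5% in the XY transition, and a change of 1 for 46%, 31.5%, 5.5% and 29%. With a change of 2, false calls were 9, 12, 9 and 7. Unchanged genes had the same mean in all groups and independent noise. The shifts between libraries seen in the size factors were absent, so these shares may not hold for the real libraries. Tables were handled in Python 3.11.15.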

Additional observations from a re-analysis of the deposited data

Results flagged for a closer look

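Between the Tet3-/- and XX transitions, a term for the difference itself passed the limma threshold for Laptm5 (-2.78), Triml1 (-2.28), Cdyl2 (-1.91) and Sox21 (-1.66) on the log2(TPM + 1) scale. These differences were among the values used to choose the genes, so they are a description.

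Kdelr3 had estimates of opposite sign in 2 transitions: all 3 XY EpiLC libraries lay below all XY mESC libraries (-0.29), and all 3 Tet3-/- EpiLC libraries lay above all Tet3-/- mESC libraries (0.71). The difference between these transitions was not tested.

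Laptm5 in Tet3-/- mESC had 1 library far from the others of its group, mutant #1 at 9.45 TPM against 14.8, 14.8 and 15.3 TPM in mutants #2 to #4. Scaled, mutant #1 was at 10.5 against 15.7, 14.4 and 14.1, where the gap was a smaller part of the range, so the flag depends on scale. By the gap over the range, chance sets apart about 1 set of values in 20, and 7 genes were examined in these 4 libraries.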

How the results depend on the processing

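Counts of called genes between Tet3-/- and XX depended on the processing. In mESC the 90 calls (74 higher) became 34 with a pseudocount of 0.1, 55 with no filter, 26 with at least 5 TPM, 477 (265 higher) with median-of-ratios scaling, 155 rescaled over protein-coding genes, 545 with quantile normalization, 2 with only the groups compared, 53 with the replicate block and 48 with a log2 change of at least 1. With 1 library left out they ran from 15 (without XX 1) to 365 (without XX 2). In EpiLC the 161 (18 higher) became 99 with at least 5 TPM, 817 (374 higher) with median-of-ratios scaling, 655 rescaled over protein-coding genes, 988 with quantile normalization and 11 with only the groups compared, and ran from 39 (without XX 3) to 318 (without mutant #3). Between the transitions the 26 became 17 with a pseudocount of 0.1, 10 with at least 5 TPM, 99 (37 higher) with median-of-ratios scaling, 89 rescaled over protein-coding genes, 112 with quantile normalization and 1 with the replicate block, and ran from 11 (without XX EpiLC 3) to 102 (without EpiLC mutant #3). In XY the 7561 became 4748 with at least 5 TPM and 4503 with a log2 change of at least 1, and ran from 5824 (without XY mESC 2) to 8919 (without XY mESC 3). The cause was not tested, beyond fewer genes being tested at 5 TPM.

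In the XY transition, where the median gene moved by 0.54, median-of-ratios scaling turned the sign of Kdelr1 (0.27 to -0.38), P4hb (0.13 to -0.54), Asah1 (0.12 to -0.55), Frg1 (0.23 to -0.42), Wwox (0.02 to -0.55), Tgds (0.20 to -0.34) and Gpr180 (0.14 to -0.39), and quantile normalization that of Wwox (-0.56), Tgds (-0.38) and Gpr180 (-0.45). Of the 6 members, with only the groups compared Laptm5, Triml1 and Cdyl2 lost their calls in EpiLC and Kdelr3 and Sox21 theirs in mESC, at the same estimates. With the replicate block Laptm5 (-2.73), Triml1 (-2.27), Cdyl2 (-1.92) and Sox21 (-1.46) lost their calls between the transitions. With no filter these 4 lost them too, at the same estimates, and Sox21 also with a pseudocount of 0.1 (-2.16), at 5 TPM and with only the groups compared. Whether replicate numbers pair the libraries is not stated in the labels, and not every same-numbered pair correlated by over 0.1, so the block is an alternative only: same-numbered mESC and EpiLC libraries correlated by 0.0695, -0.0488 and 0.032 in XX, 0.186, -0.0426 and 0.243 in XY and 0.271, 0.303 and -0.0202 in Tet3-/-, and XX and Tet3-/- mESC by 0.517, 0.443 and -0.44. Depth is unknown, so low values such as Msln in XY carry no counting limit.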
